A study of Mus musculus with 8 samples.

Results

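The transcripts described here are 10 genes of the AP-1 transcription factor and of the immediate early response: the Fos family (Fos, Fosb, Fosl1 and Fosl2), the Jun family (Jun, Junb and Jund), and Egr1, Ier2 and Ier3. They were chosen by gene symbol and are 10 of the 24787 rows of the deposited table. All 10 passed the filter on low values and stand among the 11731 genes tested. RNA came from 4T1 cells, a mouse mammary tumour line, in 8 libraries. An shRNA aimed at Etv5, the gene of an ETS factor, was present in 4 of them, and a control shRNA in the other 4. The control libraries are labelled wild type by genotype and carry the control shRNA by title, and the other 4 are labelled Etv5 knockdown. The column names give all 4 Etv5 libraries 1 construct name, so the comparison appears to rest on 1 shRNA. Whether replicates were separate cultures is not in the labels; p-values here measure the spread between libraries alone, and that spread may be technical. In such bulk RNA, fewer cells of a type and less RNA per cell cannot be told apart.

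AP-1 is a dimer of basic leucine zipper proteins, in which a Jun protein pairs with a Fos protein or with another Jun protein. It binds TPA response elements in DNA. Immediate early genes are transcribed within minutes of a growth factor or stress signal without new protein synthesis, largely through ERK and its nuclear targets at the serum response element, and many of their mRNAs decay quickly. In carcinoma cells with sustained ERK signalling, Fosl1, whose protein FRA-1 is stabilised by ERK, is often the main Fos family member. The comparison asks which of these transcripts differ between the 2 groups of libraries.

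The deposited values were read as the average coverage over a gene's bases after scaling to depth, and are called coverage values. On that reading they are per length, and levels of different genes are compared on it. For Etv5 itself the coverage value was 15.2, 15.1, 11.7 and 14.4 in the controls and 13.0, 11.2, 7.52 and 12.7 in the Etv5 shRNA libraries. Its groups overlapped (exact permutation test of the values, two-sided, p = 0.0857; the smallest that 70 assignments can give is 0.0286). The libraries labelled Etv5 shRNA are therefore described by their labels, and a lower Etv5 transcript was not resolved. Of the 50-base stretches of the Etv5 transcript, 26.8% also occur in Gm4798, so its value may hold reads of Gm4798. The library labelled Etv5 shRNA replicate 3 stood apart: the share of 86 ribosomal protein genes in its total was 21.8%, where the other 7 libraries had 7.89% to 12.0%. Its coverage, relative to the mean of the other 3 Etv5 shRNA libraries, was higher in short genes and lower in long ones. The median log2 difference was 0.42 in tested genes with transcripts of up to 2051 bases and -1.09 in those of 4682 bases or more. Results for the 10 genes are therefore given with and without that library. As for the cell type, all 8 epithelial markers were tested and summed to between 1352 and 1834 in the controls. They summed to between 1375 and 1711 in Etv5 shRNA replicates 1, 2 and 4, and to 3221 in replicate 3. Without replicate 3 the cadherin gene Cdh1 was called higher, at 38.5 ± 3.49 (n = 4) and 63.3 ± 2.87 (n = 3), with an adjusted p of 0.00455 by limma. In replicate 3 Cdh1 was 31.0, below the lowest control, 34.3, and over 8 libraries its adjusted p was 0.806 by limma. The other 7 epithelial markers were not called in either fit. Without replicate 3 the log2 fold change was -0.13 for Krt18, -0.04 for Epcam and -0.03 for Krt8. It was positive for Krt7, Krt19, Cldn3 and Cldn4. Of the 9 leukocyte markers 1 passed the filter, of the 3 endothelial markers none, and of the 7 fibroblast markers 1, Pdgfra. Cd3e, Adgre1, Dcn and Lum were at 0 in every library. Summed leukocyte markers ran from 3.02 to 4.58 in controls and from 2.93 to 3.42 with the Etv5 shRNA, endothelial markers from 0 to 0.0502 and from 0 to 0.117. Fibroblast markers ran from 2.72 to 3.60 and from 0.641 to 2.58, so these groups did not overlap. These sums were mostly Pdgfra. Col1a1 (means 0.101 and 0.174), Col1a2 and Acta2 had higher means with the Etv5 shRNA, and Pdgfrb a lower one, all near 0. Pdgfra, at 3.25 ± 0.474 (n = 4) and 1.99 ± 0.138 (n = 3), was called lower without replicate 3 (adjusted p 0.0452 by limma; 0.435 over 8 libraries). That call was lost in 7 of 13 further settings (adjusted p 0.0910 to 0.189 by limma), and the part of these markers in the results below was not tested.

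Of the 10 genes, Ier3 fell and 9 did not pass the test in the fit over 8 libraries (limma on log2(value + 1), adjusted p under 0.05). Over all genes tested, 0.486% were called lower (57 genes) and 0.00852% higher (1 gene); the split was 49 lower and 7 higher with median-of-ratios scaling, and 92 and 22 with the trend with transcript length removed. The 9 genes not called had log2 fold changes from -0.63 for Jun to 0.33 for Ier2. The median over the 10 genes was -0.13, beside -0.11 over all genes tested. Without Etv5 shRNA replicate 3 the count was the same, with Ier3 lower and none of the 10 higher, where 2.05% of all tested genes were called lower and 1.08% higher. The medians were then -0.03 for the 10 genes and -0.003 for all. The share of all tested genes with an unadjusted p under 0.05 was not worked out, so the members at that p are listed only. Among the 10, limma gave such a p for Ier3 and Jun in either fit. The same 2 genes had Etv5 shRNA values all below the lowest control value, as did 7.58% of tested genes over 8 libraries and 10.4% without replicate 3. None of the 10 lay wholly above the controls in either set, where 1.52% and 9.76% of tested genes did.

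**Figure D1:**
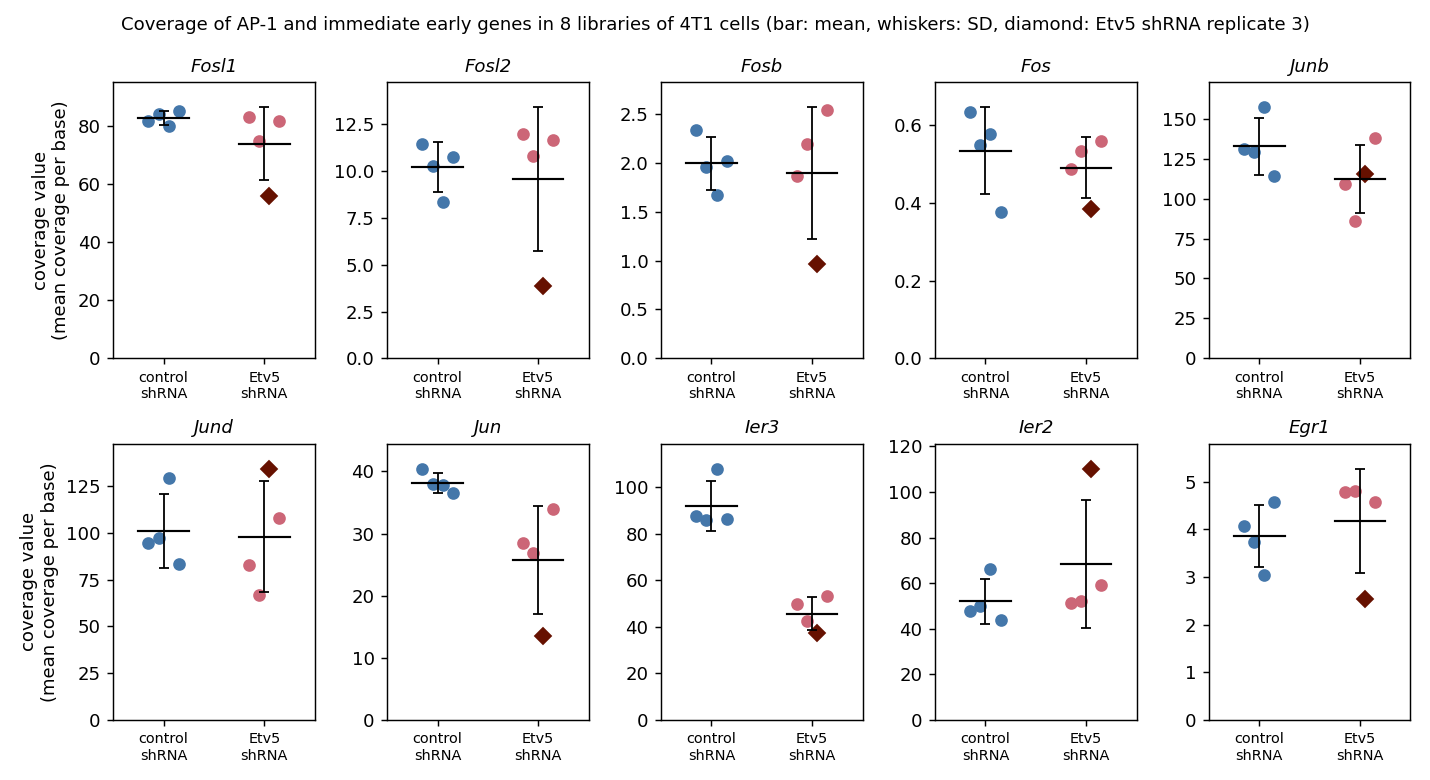
Coverage value (linear axes from 0) of each of the 10 genes in the 4 control shRNA and 4 Etv5 shRNA libraries; each point is a library, the bar is the mean, the whiskers are the SD, and the diamond is Etv5 shRNA replicate 3. In Ier3 and Jun all Etv5 shRNA points lie below all controls, and in the other 8 genes the groups overlap.

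Ier3 encodes a short early response protein, also known as IEX-1, that modulates cell survival and is induced by growth factors and by NF-kB. The gene lies on chromosome 17 of mm10 (chr17:35821684-35822923, plus strand), and its longest annotated transcript has 2 exons and 1131 bases. Its coverage value was 87.4, 85.8, 107.8 and 86.3 in control replicates 1 to 4, and 49.6, 42.4, 37.4 and 52.97 in Etv5 shRNA replicates 1 to 4. Every Etv5 shRNA library was below every control, and the highest Etv5 shRNA value was well under the lowest control. The group means were 91.9 ± 10.7 and 45.6 ± 7.04 (SD, n = 4 each), 2.01-fold lower. On the log2(value + 1) scale the difference was -1.001 (SE 0.154, 95% interval -1.35 to -0.65; adjusted p 0.0338 by limma). Of all tested genes, 65 had a log2 fold change at or below that of Ier3.

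Without Etv5 shRNA replicate 3 the mean of the Etv5 shRNA group was 48.3 ± 5.40 (SD, n = 3), 1.90-fold below the controls. This gave a log2 fold change of -0.91 (95% interval -1.17 to -0.65; adjusted p 0.00352 by limma). The call over 8 libraries was lost by limma when any 1 of the other 7 libraries was left out, at adjusted p from 0.0692 to 0.151. It was lost too with equal sums (adjusted p 0.152 by limma), with the trend with transcript length removed (0.0997) and under median-of-ratios scaling (0.0724). Without replicate 3 Ier3 was called lower under each of the 13 further settings, at adjusted p by limma from 0.000339 to 0.0305.

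The Ier3 promoter is shown because Ier3 is the called gene, that of Jun because Jun is the other gene whose groups did not overlap, and that of Fosl2 as a contrast, since its groups overlapped. Each is 300 bases of RefSeq sequence (GRCm38.p6, the assembly of mm10), from 250 bases before the RefSeq start site to 50 after it, written 5′ to 3′ on the gene's strand. The stretches are chr17:35821463-35821762 (plus strand) for Ier3, chr4:95052173-95052472 (minus strand) for Jun and chr5:32136222-32136521 (plus strand) for Fosl2. Capitals mark matches to the NF-kB site.
Ier3: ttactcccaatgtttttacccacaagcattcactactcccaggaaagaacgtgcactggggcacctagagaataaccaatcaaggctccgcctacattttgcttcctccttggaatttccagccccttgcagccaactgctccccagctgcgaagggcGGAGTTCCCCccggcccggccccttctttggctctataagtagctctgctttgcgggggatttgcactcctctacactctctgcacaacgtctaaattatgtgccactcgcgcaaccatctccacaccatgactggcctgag
Jun: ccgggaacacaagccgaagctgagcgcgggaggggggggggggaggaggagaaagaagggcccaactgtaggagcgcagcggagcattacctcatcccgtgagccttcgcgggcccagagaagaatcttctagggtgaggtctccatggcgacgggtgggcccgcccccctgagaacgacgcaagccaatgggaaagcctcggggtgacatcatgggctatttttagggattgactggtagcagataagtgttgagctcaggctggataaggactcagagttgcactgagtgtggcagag
Fosl2: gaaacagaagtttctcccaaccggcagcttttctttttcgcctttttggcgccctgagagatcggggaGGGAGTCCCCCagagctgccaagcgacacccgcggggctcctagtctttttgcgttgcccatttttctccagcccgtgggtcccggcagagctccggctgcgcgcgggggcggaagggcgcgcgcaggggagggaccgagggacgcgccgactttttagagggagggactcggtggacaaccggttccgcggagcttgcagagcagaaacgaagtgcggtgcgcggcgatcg
The table held promoters for 7 of the 10 genes, and none for Fosl1, Egr1 and Ier2. Both strands were searched for the AP-1 motif TGANTCA, the cAMP response element TGACGTCA, the ETS sequence CCGGAA, the TATA box TATAAA, the serum response factor CArG box and the NF-kB site. Ier3 had 1 match, to the NF-kB site on the opposite strand, starting 92 bases before the start site. Fosl2 had 2 overlapping NF-kB matches, one on each strand, and Jun had no match to any of the 6 motifs. Fos and Fosb also held an NF-kB match, and Fos and Junb a TATA box match, while Jund held none. The Junb match began at the RefSeq start site itself. The Jund window ends at 70697788 on chromosome 8, before the annotated gene starts at 70698949, so it may not be the promoter of the measured transcript. For Fosl2 the window lies inside the annotated gene, which starts at 32135801. No match to the AP-1 motif, the cAMP response element, CCGGAA or the CArG box lay in any of the 7 windows. CCGGAA was the only ETS sequence searched, and the shorter GGAA occurs in the Ier3, Jun and Fosl2 windows. Sites more than 250 bases before the start site were not searched, so the genes may hold such motifs there. Of all 32851 promoter windows, 4.51% held the NF-kB site, 13.6% the TATA box, 14.9% CCGGAA, 7.81% the AP-1 motif, 1.79% the cAMP response element and 1.63% the CArG box. The NF-kB match thus occurred in Ier3, which fell, and in Fosl2, Fosb and Fos, which were not called.

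The 3 tested genes whose log2(value + 1) was most correlated with that of Ier3 over the 8 libraries were Rnf122 (Pearson r 0.992), Plet1os (0.990) and Fam213a (0.988). The points share their libraries and depth, and the correlation is a description. As Ier3 was lower with the Etv5 shRNA, genes picked by likeness to it in the same libraries would tend to be lower too. Their calls below are therefore not separate evidence. Fam213a was 31.0 ± 4.37 in controls and 16.1 ± 1.82 with the Etv5 shRNA (SD, n = 4 each), and was called lower (adjusted p 0.0442 by limma). Plet1os, at 26.1 ± 2.46 and 14.97 ± 2.03, and Rnf122, at 1.49 ± 0.139 and 0.757 ± 0.137, were called by limma without Etv5 shRNA replicate 3 (adjusted p 0.00955 and 0.0297), and over 8 libraries their adjusted p was 0.0666 and 0.121.

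**Figure D2:**
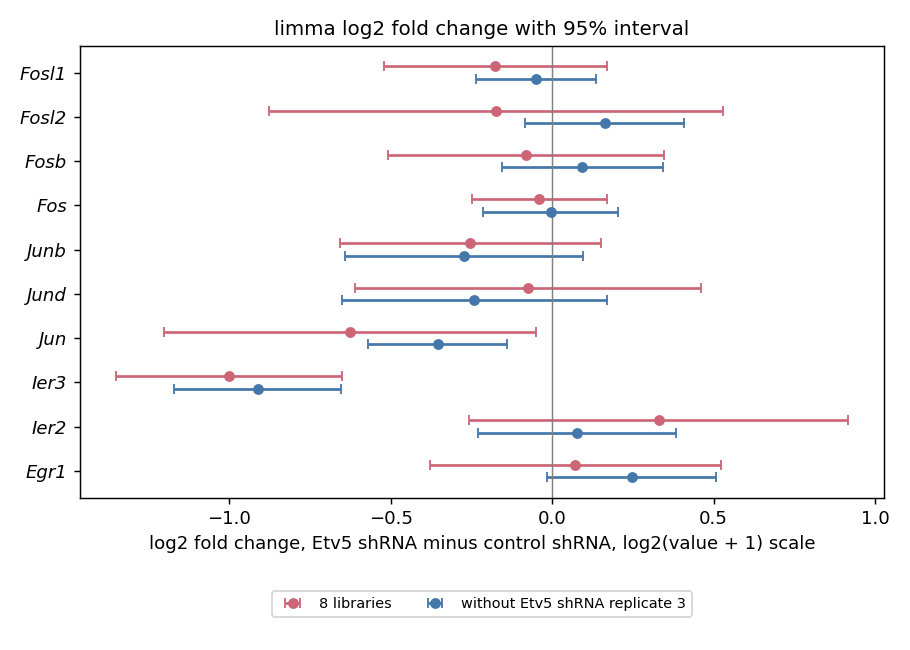
Log2 fold change (Etv5 shRNA minus control shRNA, on the log2(value + 1) scale) of the 10 genes with its 95% interval from limma, over 8 libraries and without Etv5 shRNA replicate 3. Ier3 lies near -1 in either fit, at -1.001 and -0.91, and the intervals of Ier3 and Jun alone exclude 0.

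The Jun family supplies the obligate partners of AP-1. Jun, the prototype, lies on chromosome 4 (chr4:95049034-95052222, minus strand) and has a single exon. Its coverage value was 40.4, 37.9, 37.8 and 36.5 in control replicates 1 to 4, and 28.5, 26.9, 13.4 and 33.9 in Etv5 shRNA replicates 1 to 4. All 4 Etv5 shRNA libraries were below all controls, with replicate 3 the lowest and replicate 4 the closest to the controls. The means were 38.1 ± 1.64 and 25.7 ± 8.69 (SD, n = 4 each). Jun did not pass the test (log2 fold change -0.63, 95% interval -1.20 to -0.05, adjusted p 0.637 by limma). Without replicate 3 the Etv5 shRNA mean was 29.7 ± 3.68 (SD, n = 3) and the log2 fold change -0.35 (95% interval -0.57 to -0.14; adjusted p 0.0856 by limma). With replicate 3 left out and the length trend removed, Jun was called lower (log2 fold change -0.35, adjusted p 0.0366 by limma). The same held with replicate 3 and control replicate 3 both left out (-0.36, adjusted p 0.0399). Of the 50-base stretches of its transcript, 5.83% also occur in the annotated transcript Junos.

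Junb, which encodes a Jun protein that often restrains proliferation, had the highest coverage of the 10 genes. It was 131.1, 129.0, 157.0 and 114.0 in the controls and 109.4, 85.9, 115.2 and 137.9 in the Etv5 shRNA libraries. Etv5 shRNA replicate 2 was lowest and control replicate 3 highest, and the groups overlapped. Its log2 fold change was -0.25 (95% interval -0.66 to 0.15, adjusted p 0.876 by limma), and -0.27 (-0.64 to 0.10, adjusted p 0.408) without replicate 3. The annotated Junb gene overlaps the gene Prdx2, which was 155 ± 37.6 in the controls (SD, n = 4). The longest Junb transcript shares 0.0% of its 50-base stretches with other genes. As counting intervals are not given, the value of Junb may still hold reads of Prdx2.

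Jund encodes the Jun protein that is expressed most steadily in resting cells. Its values were 94.9, 97.1, 129.7 and 83.5 in the controls and 83.0, 67.0, 134.4 and 108.2 with the Etv5 shRNA. The 2 highest values came from replicate 3 of either group, and the groups overlapped throughout. The log2 fold change was -0.07 over 8 libraries (95% interval -0.61 to 0.46, adjusted p 0.928 by limma) and -0.24 without replicate 3 (-0.65 to 0.17, adjusted p 0.511). Its sign turned to 0.10 with median-of-ratios scaling. An antisense transcript, Gm11175, shares 48.3% of the 50-base stretches of Jund. No source used here says that coverage was split by strand, so the value of Jund may hold reads of that transcript.

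The Fos family cannot form dimers with itself and works through Jun proteins. Fosl1, which encodes FRA-1, was its main member here. Fosl1 was 81.7, 84.3, 79.9 and 85.2 in the controls and 83.3, 74.8, 56.1 and 81.9 with the Etv5 shRNA. The controls lay within a narrow band, and 2 Etv5 shRNA libraries fell inside it, with replicate 3 the lowest. For Fosl1 the log2 fold change was -0.18 (95% interval -0.52 to 0.17, adjusted p 0.879 by limma), and -0.05 (-0.24 to 0.14, adjusted p 0.773) without replicate 3. Ccdc85b, a gene on the opposite strand, overlaps Fosl1 and shares 58.9% of its 50-base stretches, so the coverage of Fosl1 is uncertain. The values listed for Ccdc85b were 39.3 to 54.2 in controls, 33.4 to 41.3 in Etv5 shRNA replicates 1, 2 and 4, and 102 in replicate 3.

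Fosl2, which encodes FRA-2, was 11.4, 10.3, 8.32 and 10.7 in the controls and 12.0, 10.8, 3.89 and 11.7 in the Etv5 shRNA libraries. Replicate 3 was far below the rest, and each of the other 3 lay above at least 3 of the 4 controls. The log2 fold change was -0.17 over 8 libraries (95% interval -0.88 to 0.53, adjusted p 0.894 by limma) and 0.16 without replicate 3 (-0.08 to 0.41, adjusted p 0.459). Fosb, an inducible member, was 2.34, 1.96, 1.67 and 2.02 in the controls and 1.87, 2.20, 0.967 and 2.54 with the Etv5 shRNA. Its groups overlapped, and its log2 fold change went from -0.08 (95% interval -0.51 to 0.35, adjusted p 0.909 by limma) to 0.09 (-0.16 to 0.34, adjusted p 0.682) without replicate 3. Fos, the prototype of the family and the classic serum-induced gene, was barely covered. It was 0.634, 0.550, 0.578 and 0.376 in the controls and 0.486, 0.534, 0.384 and 0.560 with the Etv5 shRNA. The groups overlapped, and on a pseudocount of 1 a change of so low a gene is understated (log2 fold change -0.04, 95% interval -0.25 to 0.17, adjusted p 0.908 by limma). With a pseudocount of 0.1 it was -0.09.

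Summed over the family, Fos transcripts came to a coverage of 95.5 ± 3.44 in the controls and 85.9 ± 16.9 with the Etv5 shRNA (SD, n = 4 each), and to 94.1 ± 5.11 (n = 3) without replicate 3. Fosl1 made up 86.7% ± 1.35 of that sum in the controls and 86.6% ± 3.28 with the Etv5 shRNA, and Fosl2 10.6% ± 1.12 and 10.7% ± 2.92. Fosb held 2.09% ± 0.245 and 2.15% ± 0.492, and Fos 0.562% ± 0.126 and 0.577% ± 0.0558. Etv5 shRNA replicate 3 had the highest Fosl1 share, 91.5%, and the lowest Fosl2 share, 6.34%. Over 8 libraries each share differed between groups by less than its spread. Without replicate 3 the Fosl2 share was 12.2% ± 0.103 (n = 3), with 12.3%, 12.2% and 12.1% in replicates 1, 2 and 4, all above the highest control, 11.9%. The Fosl1 share was then 84.9% ± 0.365, and the lowest control, 85.01%, lay inside the range of those 3 libraries, 84.7% to 85.3%.

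Summed Jun family coverage was 272 ± 37.8 in the controls and 236 ± 45.0 with the Etv5 shRNA. Junb held 48.8% ± 0.339 and 47.6% ± 2.64 of it, and Jund 37.0% ± 2.04 and 41.2% ± 6.66. Jun held 14.2% ± 1.78 in the controls and 11.3% ± 4.27 with the Etv5 shRNA (SD, n = 4 each). In single libraries the Jun share was 15.2%, 14.4%, 11.6% and 15.6% in the controls and 12.9%, 14.9%, 5.11% and 12.1% with the Etv5 shRNA, so the groups overlapped. Without replicate 3 the Jun family sum was 227 ± 50.4 and the shares of Junb, Jund and Jun were 48.9% ± 0.933, 37.8% ± 0.727 and 13.3% ± 1.47 (n = 3). The ratio of summed Fos to summed Jun family coverage was 0.357 ± 0.0583 in the controls, 0.378 ± 0.114 with the Etv5 shRNA and 0.426 ± 0.0744 without replicate 3. These sums and shares are descriptions without a test, and the shares of Fosl1, Jund and Junb carry the overlaps with other genes given above.

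**Figure D3:**
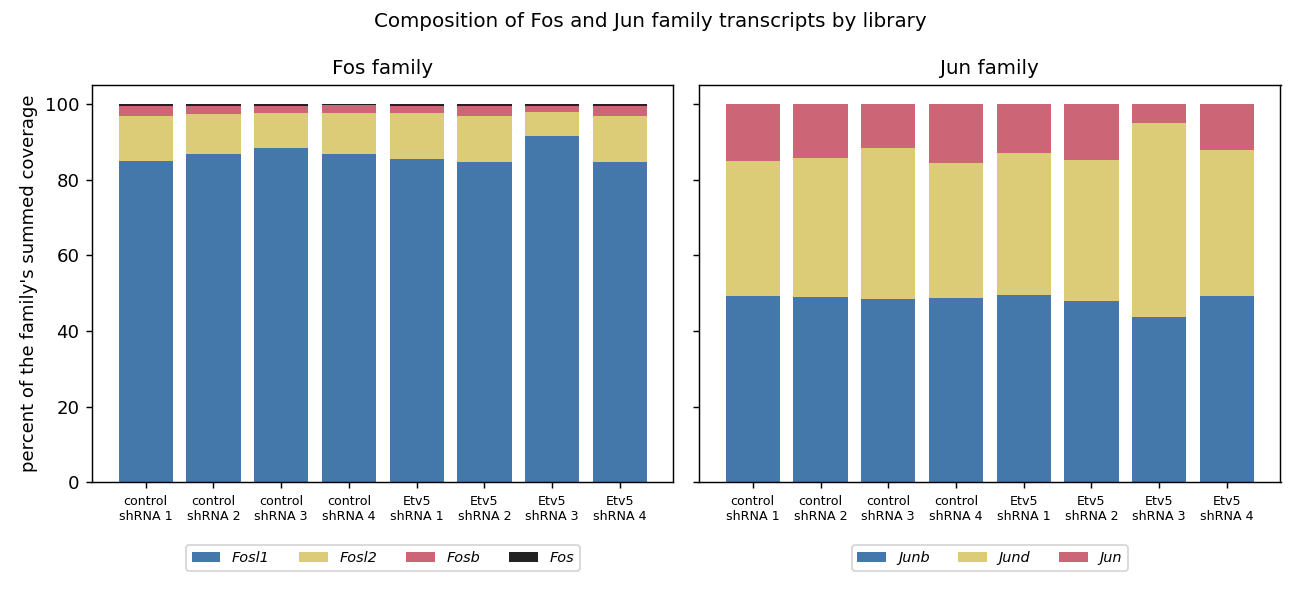
Stacked bars of the share (percent) that each member took of the summed coverage of the Fos family (left) and of the Jun family (right), 1 bar per library. Fosl1 holds 84.7% to 91.5% of Fos family coverage in every library, and Etv5 shRNA replicate 3 has the smallest Jun share, 5.11%.

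Egr1 encodes a zinc finger factor induced through the serum response element, and Ier2 a short nuclear early response protein. Egr1 was 4.07, 3.74, 3.03 and 4.57 in the controls and 4.79, 4.796, 2.53 and 4.57 with the Etv5 shRNA. Replicate 3 of either group was its lowest, and 2 Etv5 shRNA libraries exceeded all controls. The log2 fold change was 0.07 (95% interval -0.38 to 0.52, adjusted p 0.921 by limma) and 0.25 without replicate 3 (-0.02 to 0.51, adjusted p 0.293). Ier2 was 47.9, 49.9, 66.3 and 43.7 in the controls and 51.3, 52.2, 110.2 and 59.3 with the Etv5 shRNA. The groups overlapped, and replicate 3 was again the highest of either group. Its log2 fold change of 0.33 (95% interval -0.26 to 0.92, adjusted p 0.879 by limma) became 0.08 (-0.23 to 0.38, adjusted p 0.790) without Etv5 shRNA replicate 3.

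By control mean the order of levels was Junb (133), Jund (101), Ier3 (91.9), Fosl1 (82.8), Ier2 (51.9), Jun (38.1), Fosl2 (10.2), Egr1 (3.85), Fosb (2.00) and Fos (0.534). Junb and Jund overlapped in their control ranges, as did Jund and Ier3, and no other neighbours did. Junb lay above 97.7% of tested genes in its control mean, Ier3 above 96.3%, Fosl1 above 95.8% and Fos above 0.768%. With the Etv5 shRNA, Ier3 came below Fosl1 and Ier2 in mean, and its range of 37.4 to 52.97 overlapped that of Ier2, 51.3 to 110.2, and not that of Fosl1, 56.1 to 83.3.

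The deviation of Etv5 shRNA replicate 3 differed between the 10 genes along transcript length. On the log2(value + 1) scale it stood 1.01 above the mean of the other Etv5 shRNA libraries for Ier2 (1522 bases), 0.66 above for Jund (1668 bases) and 0.08 above for Junb (1809 bases). It was -0.50 for Fosl1 (1864 bases), little longer than Junb, and -0.14 for Fos (2108 bases). For longer transcripts the difference was -1.08 for Jun (3189 bases), -0.70 for Fosb (3782 bases), -0.69 for Egr1 (4484 bases) and -1.35 for Fosl2 (6537 bases). Across the 10 genes the rank correlation of the difference with length was -0.81, beside -0.60 across 11561 tested genes with a length; genes of a library share its depth and are not replicates. Ier3 has the shortest transcript of the 10, at 1131 bases, and its difference was -0.36. Among the controls, replicate 3 had the highest ribosomal protein share (12.0%), the highest Ier3, Ier2, Jund and Junb, and the lowest Fosl1, Fosl2, Fosb and Egr1.

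**Figure D4:**
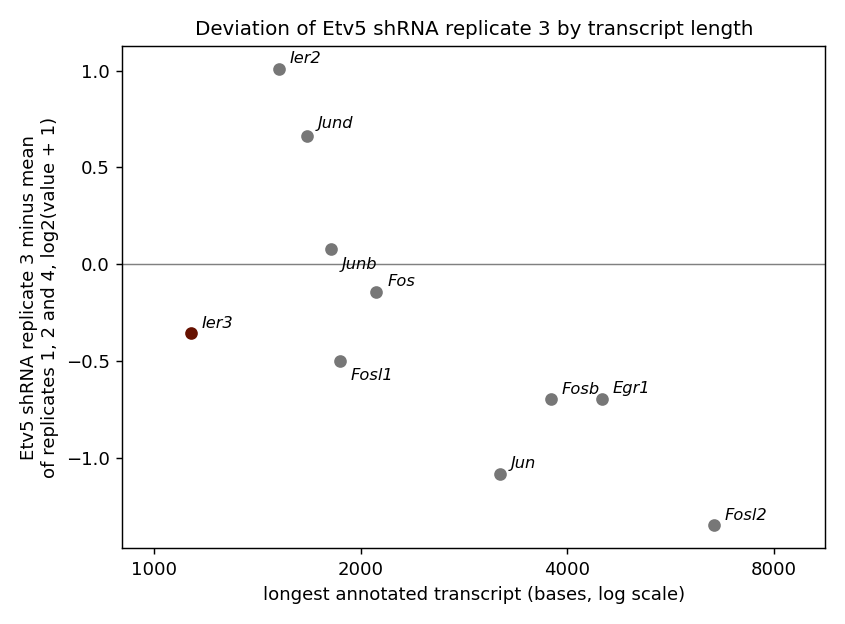
Log2(value + 1) of Etv5 shRNA replicate 3 minus the mean of Etv5 shRNA replicates 1, 2 and 4 for each of the 10 genes (vertical axis) against the length of the longest annotated transcript in bases (horizontal log axis). The points run from 1.01 for Ier2 to -1.35 for Fosl2, and Ier3, the shortest, lies at -0.36.

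Other immediate early genes gave a mixed picture. Of 31 listed, 28 were tested: over 8 libraries 1 was lower, 1 higher and 26 were not called, with a median log2 fold change of -0.20. The lower gene was Nfkbiz, which encodes IkB-zeta, a nuclear protein of the IkB family. It was 20.3, 19.5, 17.4 and 21.0 in the controls and 5.21, 5.16, 1.74 and 4.71 with the Etv5 shRNA. The log2 fold change was -2.05 (adjusted p 0.0113 by limma). Ctgf, which encodes a secreted matrix-associated protein, was higher, at 33.7 ± 3.28 and 59.2 ± 5.18 (SD, n = 4 each; adjusted p 0.0442). Its call was lost by limma when any 1 library other than Etv5 shRNA replicate 3 was left out (adjusted p 0.0901 to 0.240). It was lost too with equal sums (adjusted p 0.553 by limma), quantile normalisation (0.0594) and a pseudocount of 0.1 (0.0541). Nfkbiz lost its call without any 1 control (adjusted p 0.0544 to 0.0635 by limma) and with equal sums (0.0569). Without Etv5 shRNA replicate 3 the log2 fold change was -1.77 for Nfkbiz (adjusted p 1.18e-05 by limma) and 0.86 for Ctgf (0.00134). In that fit each kept its call in all further settings, 13 for Nfkbiz and 12 for Ctgf.

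Without Etv5 shRNA replicate 3, 2 of the 28 were lower, 2 higher and 24 not called, with a median of -0.08. The additional genes were Ier5, lower, and Cyr61, higher. Ier5, a relative of Ier2, was 22.2 ± 3.82 (SD, n = 4) in controls and 11.9 ± 2.703 (n = 3) with the Etv5 shRNA (adjusted p 0.0239 by limma). That call was lost in 5 of 13 further settings, among them without Etv5 shRNA replicate 1 or 2 as well (adjusted p 0.127 and 0.135 by limma) and without control replicate 1 or 2 as well (0.0661 and 0.0734). Cyr61, a matricellular protein gene like Ctgf, was 22.2 ± 0.751 (n = 4) and 33.6 ± 2.42 (n = 3), at an adjusted p of 0.0068 by limma. In Etv5 shRNA replicate 3 Cyr61 was 15.3, below the lowest control, 21.2, and over 8 libraries its adjusted p was 0.879 by limma. The classic members Egr2, Egr3, Nr4a1, Dusp1 and Myc were not called in either fit; they were picked for mention with their values known. Myc was 133 ± 4.11 in controls and 123 ± 30.9 with the Etv5 shRNA (SD, n = 4 each), and 139 ± 1.96 (n = 3) without replicate 3. Nr4a1 was 6.87 ± 0.757 and 6.26 ± 1.65, and 7.07 ± 0.375 without replicate 3.

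The kinases and factors upstream were not called over 8 libraries. Of the 15 ERK cascade genes, 12 tested JNK and p38 kinase genes, 8 genes of SRF, its cofactors and CREB, and 6 genes of AU-rich mRNA decay and stability, limma called none in either fit. Without Etv5 shRNA replicate 3, some of 13 further settings gave calls. They did so in 4 settings for the ERK list, 3 for JNK and p38, and 1 for AU-rich factors. The SRF and CREB list had no call in any of the 13. Median log2 fold changes of these lists over 8 libraries were -0.13, -0.12, -0.14 and -0.36, and without Etv5 shRNA replicate 3 they were 0.08, 0.06, 0.13 and -0.04. Among them Mapk3, which encodes ERK1, was 69.8 ± 7.13 in controls and 51.2 ± 3.61 (n = 3) without that library, at an adjusted p of 0.054 by limma; it was singled out after its values were seen. Srf, which encodes the serum response factor, was 13.6 ± 0.898 and 15.6 ± 3.40 (SD, n = 4 each), and 17.1 ± 2.25 (n = 3) without replicate 3. Of 10 tested AP-1 partner factors none was called over 8 libraries. Without replicate 3 limma called 1 higher, Atf3, a stress-induced member of the ATF family that can pair with Jun, at 4.33 ± 0.469 (n = 4) and 7.33 ± 0.382 (n = 3; adjusted p 0.00955); the call was lost without Etv5 shRNA replicate 1 or 2 as well (adjusted p 0.0725 and 0.0624). All 10 tested heat shock genes were not called in either fit, with medians of -0.01 and 0.13. Without replicate 3 that list gave calls in 4 of the 13 further settings.

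Genes known as AP-1 targets, a list drawn up with some of these results known, moved in part. Of 14 tested, 2 were lower over 8 libraries, none was higher and 12 were not called, with a median of -0.23. The lower genes were Mmp13, a collagenase gene, at 6.08 ± 0.486 and 1.05 ± 0.294, and Mmp3, a stromelysin gene, at 159 ± 18.7 and 79.2 ± 2.16 (SD, n = 4 each; adjusted p 0.000956 and 0.0124 by limma). The Mmp3 call did not hold in 6 of the 8 fits with 1 library left out, all but those without replicate 3 of either group (adjusted p 0.0556 to 0.082 by limma), nor with median-of-ratios scaling (0.182). Without Etv5 shRNA replicate 3 its log2 fold change was -0.98 (adjusted p 0.00134 by limma), and the call held in all 13 further settings. Of the 14 genes, 3 were lower without that library, 1 was higher and 10 were not called, with a median over the list of -0.06. The gelatinase gene Mmp9 was then lower, at 118 ± 9.20 (n = 4) and 80.4 ± 4.78 (n = 3; adjusted p 0.0185 by limma). Over 8 libraries its adjusted p was 0.375, and without replicate 3 the call was lost in 7 of 13 further settings, with adjusted p up to 0.114 without Etv5 shRNA replicate 2. The cyclin gene Ccnd1 (464 ± 29.9 and 434 ± 41.6, and 454 ± 10.4 without replicate 3) and the urokinase receptor gene Plaur (80.6 ± 12.0 and 62.4 ± 11.03, and 66.3 ± 9.47 without replicate 3; SD, n = 4 each and 3 without it) were not called in either fit.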

How the data were processed

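Total RNA of 4T1 cells was extracted and libraries were made with a TruSeq RNA kit for a NovaSeq instrument, per the labels' protocols. Reads were aligned with STAR 2.7.10a to mm10, per the submitters' processing notes. Per the file headers, the deposited values are a signal derived from coverage tracks; they were read here as mean coverage per base scaled to depth. How coverage was averaged, and on which annotation, is not given in the sources used here. Read depth is unknown and counting intervals are not given. The design named a count model; since the table holds no counts, its log-scale fallback was used.

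Values were transformed as log2(value + 1). A value of 0.5 in 4 libraries was required, and the 11731 genes left entered limma 3.58.1 (R 4.3.3; moderated variances with a trend on mean level; group as the single term). Adjustment was by Benjamini-Hochberg over all of them, and calls were made at 0.05. The test was tried on simulated data. Transcript lengths, coordinates and overlaps came from GENCODE mouse release 21 on mm10, with a length for 98.6% of tested genes, and promoters from RefSeq. RefSeq and GENCODE can place a start site differently. Motif matches describe letters only.

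The 10 genes and all lists were chosen with earlier results of these data known. Named were the 10 genes, Etv5, up to 4 called genes per list and direction in either fit, and the 3 genes most correlated with a called gene; a few others are marked in the text, and 1 gene of the AP-1 target list is not reported here. Lists covered other immediate early genes, AP-1 partners, ERK, JNK and p38 kinases, SRF and CREB, AP-1 targets, AU-rich mRNA factors, heat shock genes and markers of 4 cell types. Alternatives tried were 3 other scalings, 2 filters, a pseudocount of 0.1, a replicate block, removal of the trend with transcript length (lowess, span 0.3) and leaving out each library. The settings that combine these with leaving out Etv5 shRNA replicate 3 were added after the data were seen.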

Additional observations from a re-analysis of the deposited data

Results flagged for a closer look

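For the 10 genes and Etv5, the highest and lowest library of each group of 4 were compared with their nearest neighbour: the gap, divided by the group's range, was set against Dixon's 95% critical value. Of 22 groups 4 passed, where chance gives about 1.1, or 1 in 20. In 3 of them the library was Etv5 shRNA replicate 3: Fosl2 at 3.89 (ratio 0.856) and Egr1 at 2.53 (ratio 0.900) were the lowest of their group, and Ier2 at 110.2 (ratio 0.864) the highest. The 4 groups that passed also included Ier3 in the controls, where replicate 3 was the highest at 107.8 (ratio 0.927).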

How the results depend on the processing

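Over 8 libraries the number of the 10 genes called was 1, and it was 0 with median-of-ratios scaling, equal sums, the length trend removed and the replicate block. It stayed at 1 without a filter, with a filter at 1 (where Fos was not tested), with a pseudocount of 0.1 and with quantile normalisation, and ran from 0 to 1 when single libraries were left out. The count over the related lists was 4, with 2 under equal sums and 1 to 9 when single libraries were left out. Without Etv5 shRNA replicate 3 the 10 genes gave 1 call, 2 with the length trend removed, and 1 to 2 when a further library was left out; the related lists gave 9, then 16 with the length trend removed and 5 to 20 with a further library left out. Signs of genes never called turned in several settings. Fos went to 0.0069 with the length trend removed, 0.0169 with median-of-ratios scaling and 0.13 with quantile normalisation. Fosb went to 0.0596, 0.0187 and 0.117 in the same order, Fosl2 to 0.0182 with the length trend removed, and Jund to 0.10 with median-of-ratios scaling. When single libraries were left out, log2 fold changes ran from -0.19 to 0.0938 for Fosb, -0.31 to 0.16 for Fosl2, -0.24 to 0.0909 for Jund and -0.0134 to 0.25 for Egr1. For Fos, without Etv5 shRNA replicate 3, the log2 fold change was -0.0045, and it was 0.0140 with equal sums, 0.0345 with the length trend removed, 0.0567 with quantile normalisation and 0.00997 with the replicate block, and from -0.0560 to 0.0268 with a further library left out; Fosl1 was at 0.00136 with the length trend removed. With the replicate number as a block Ier3 kept its log2 fold change of -1.001 at an adjusted p of 0.0847 by limma, and Ctgf 0.80 at 0.106; same-numbered libraries correlated in their deviations at 0.549, 0.0924, 0.794 and 0.510, not all above the 0.1 required, and control replicates 2 and 4 correlated best with other numbers (0.148 and 0.693). The libraries were therefore not taken as paired, and no weaker effect is read from this. Over all genes, lower calls were 57, 50 with the block, 92 with the length trend removed, 37 with a pseudocount of 0.1, 241 without Etv5 shRNA replicate 3 and 28 to 37 without any other library. The median of all genes was -0.11, and 0.02 with median-of-ratios scaling. Ctgf and Cyr61 had no length under these symbols and dropped out where the length trend was removed. Except where stated, the cause was not tested. Depth is unknown, and the low values of Fos and Fosb limit what could be resolved there.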
